A study of Mus musculus with 14 samples.

Results

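Granzymes are the serine proteases of cytotoxic granules, and their mRNA levels were compared between HDAC1-deficient and WT activated mouse CD4+ T cells. The family was taken as 9 genes of 35730 with a value in every library. Gzmb, Gzmc, Gzmd, Gzme, Gzmf and Gzmg form a cluster of 6 genes on chromosome 14, Gzma and Gzmk are 2 neighbours on chromosome 13, and Gzmm stands alone on chromosome 10. A member was read from the row that carried its name in a library. Where a library had no such row, it was read from an assembled locus without a name. This locus had to share at least 0.8 of the joint span with a GENCODE or RefSeq span of the gene. Of the 126 member values, 97 came from named rows and 29 from matched loci, and for Gzmb 5 libraries had a named row and 9 a matched locus. The matched ones were all mutant libraries and, in each experiment, the WT library with the highest Gzmb. Both kinds of row gave the same span for Gzmb, chr14:56258856-56262260.

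Cytotoxic lymphocytes store granzymes in granules and release them together with perforin, which opens the membrane of the target cell so that the proteases can enter. Granzyme B cuts after aspartate and starts apoptosis through caspases, whereas granzyme A is a tryptase. The proteases are best known from CD8+ T cells and NK cells, and most CD4+ T cells make little of them, although a cytotoxic subset of CD4+ T cells does.

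The question was what the histone deacetylases HDAC1 and HDAC2 do to the cytotoxic program of CD4+ T cells, in 2 experiments with their own WT samples. In the first, naive CD4+ T cells were activated for 3 days with anti-CD3 and anti-CD28 under nonpolarizing conditions with IL-2, live cells were sorted, and 4 WT libraries were compared with 4 libraries of HDAC1cKO-HDAC2HET cells, which carry both floxed Hdac1 alleles, a single floxed Hdac2 allele and the Cd4-Cre transgene. In the second, 3 WT libraries were compared with 3 libraries of HDAC1cKO cells, with both floxed Hdac1 alleles and Cd4-Cre, after 3 days of activation and 12 hours of restimulation with anti-CD3. All mice were C57BL/6 of 6 to 12 weeks of age. The cells came from the spleen by the labels, with lymph nodes added by the published methods. Cd4-Cre acts from the CD4-expressing stage in the thymus, so CD8+ T cells of these mice lose the floxed alleles as well. Nothing in the labels says that the restimulated samples came from separate mice, and the p-values measure the spread between these samples, which may be technical.

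Depth lay between about 23529600 and 55640300 fragments per library, estimated from the confidence bounds of low values. Hdac1 fell from 78.1 ± 1.44 to 8.30 ± 1.89 FPKM (mean ± SD) in the first experiment, where FPKM counts fragments relative to transcript length and library depth, and from 75.6 ± 4.78 to 10.1 ± 1.82 in the second, and no mutant library reached a WT library. Hdac2 fell from 59.0 ± 1.04 to 35.4 ± 1.36 FPKM in HDAC1cKO-HDAC2HET cells and was at 72.4 ± 8.65 in restimulated WT and 80.4 ± 6.91 FPKM in HDAC1cKO cells (limma, adjusted p = 0.583). Of 10 CD4+ T cell markers, 8 or 9 were at 1 FPKM or above in each library, and of the 8 tested in the first experiment 7 were lower and 1, Thy1, was higher in the mutant (limma, adjusted p of at most 0.05). Among all genes, 27.6% were lower and 24% higher at this threshold. Xist was above 1 FPKM in all 8 libraries of the first experiment, in 2 of 3 restimulated WT libraries and in 0 of 3 HDAC1cKO libraries, so sex was not balanced in the second experiment. Restimulated WT replicate 2 was the only WT library not above 1 FPKM. Fits with sex as a covariate therefore set the HDAC1cKO libraries against that library alone.

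The 6 genes of the chromosome 14 cluster lie on the minus strand of mm10, from Gzme at chr14:56117626-56120625 and Gzmd at chr14:56129556-56132608 over Gzmg at chr14:56156582-56159579, Gzmf at chr14:56205263-56211417 and Gzmc at chr14:56231441-56234656 to Gzmb at chr14:56258838-56262260. Gzma is at chr13:113093825-113100981 and Gzmk at chr13:113171608-113225908, both on the minus strand, and Gzmm is at chr10:79689020-79695261 on the plus strand. The 250 bases before the transcription start are shown for Gzmb, the most abundant member, and for Gzmc and Gzmf. These were the only other members of the cluster that reached the mean of 0.1 FPKM needed for the test. The sequences are those of RefSeq on GRCm38.p6, read on the gene's strand, at chr14:56262335-56262584, chr14:56234658-56234907 and chr14:56211408-56211657. For Gzmb this start lies upstream of the gene end at 56262260 given above. The bases between that end and 56262335 are outside its window. Capitals mark matches on either strand to the letters TGTGGT (RUNX), TGANTCA (AP-1), GGTGTGA (T-box) and TGACGTCA (CRE).
Gzmb: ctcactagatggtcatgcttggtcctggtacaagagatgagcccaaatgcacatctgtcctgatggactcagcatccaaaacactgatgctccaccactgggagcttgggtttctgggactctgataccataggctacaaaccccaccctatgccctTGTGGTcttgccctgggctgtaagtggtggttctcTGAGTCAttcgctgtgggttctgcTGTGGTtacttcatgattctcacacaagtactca
Gzmc: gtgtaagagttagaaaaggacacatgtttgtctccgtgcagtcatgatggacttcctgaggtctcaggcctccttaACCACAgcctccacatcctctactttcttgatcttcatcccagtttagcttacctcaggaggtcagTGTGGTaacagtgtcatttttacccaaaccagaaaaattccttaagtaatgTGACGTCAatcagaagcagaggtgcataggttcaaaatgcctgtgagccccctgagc
Gzmf: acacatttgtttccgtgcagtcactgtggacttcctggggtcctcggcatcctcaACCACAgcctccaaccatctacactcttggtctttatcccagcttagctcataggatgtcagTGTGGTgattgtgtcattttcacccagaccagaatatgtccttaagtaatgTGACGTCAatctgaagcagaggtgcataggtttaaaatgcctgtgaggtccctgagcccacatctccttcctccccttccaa

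Gzmb has 2 RUNX matches, which start 93 and 34 bases before the end of its window, and 1 AP-1 match between them. Each of the other 5 genes of the cluster also has 2 RUNX matches, and Gzmc, Gzmf and Gzmg have a CRE match and no AP-1 match. Gzmd and Gzme have neither. Of 32851 promoter windows of the same length, 14% hold a RUNX match, 1.27% hold 2 or more, 6.75% hold an AP-1 match, 3.33% a T-box match and 1.55% a CRE match. The T-box letters were found in none of the cluster's windows, while the window of Gzmk and that of the second Gzmm start hold 1 match each, and those of Gzma and the first Gzmm start hold 1 RUNX match each. The Gzmb window is 44.6% to 50.2% identical to those of the other 5 genes, which are 71.5% to 94.8% identical among themselves, so the 5 windows are related copies and their matches are not separate observations. The Gzmb window is cut farther upstream of its gene than the other 5. Its identity to them, and the positions of its matches, thus compare windows that may be shifted. The matches are letters in a window and say nothing about a bound factor.

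The same relatedness limits what short reads can tell apart. In annotated transcripts, 0% of 50-base windows of Gzmb, Gzma, Gzmk and Gzmm occur in another granzyme, against 4.14% for Gzmc, 7.36% for Gzmf, 19.8% for Gzmg, 20.6% for Gzme and 21.9% for Gzmd. Values of Gzmd, Gzme and Gzmg are therefore uncertain by the reads they share, whereas those of Gzmb are not affected.

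Gzmb was the only granzyme above 1.58 FPKM in any library, and it was far higher in HDAC1cKO-HDAC2HET than in WT cells. The 4 WT libraries were at 20.6, 15.6, 30.1 and 20.7 FPKM, and the 4 HDAC1cKO-HDAC2HET libraries at 485, 872, 561 and 665 FPKM. The lowest mutant library was 16.1 times the highest WT library, so the groups lay far apart. Mean FPKM was 29.7 times higher, a log2 change of 4.89 ± 0.237 (SE) that passed the test (limma, adjusted p = 3.99e-06). By the exact permutation test p was 0.0286, the smallest value that 4 against 4 samples allow. Among protein-coding genes above 0, Gzmb ranked 3949th, 4703rd, 2920th and 3909th in the WT libraries and 128th, 77th, 117th and 98th in the mutant libraries. The WT values rested on 884 to 1394 fragments per library and the mutant values on 15895 to 46936. Counted per 1000000 fragments without the length term (CPM), Gzmb was at 27.1 ± 7.87 CPM in WT and 779 ± 201 CPM in mutant libraries, so the groups stood as far apart as on the FPKM scale. In bulk samples, more cells that transcribe Gzmb and more RNA per cell cannot be told apart.

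After restimulation, Gzmb was again higher in each mutant library than in each WT library, with a smaller gap. The WT libraries were at 63.9, 16.7 and 23.3 FPKM and the HDAC1cKO libraries at 203, 172 and 234 FPKM. WT replicate 1 stood apart from the other two, and the lowest mutant library was 2.70 times this library. Mean FPKM was 5.86 times higher, and the log2 fold change of 2.78 ± 0.486 (SE) did not pass the test (limma, adjusted p = 0.146). The exact permutation p was 0.1, below which 3 against 3 samples cannot go. Without WT replicate 1 the log2 fold change was 3.34 and passed (limma, adjusted p = 0.0126), with a mean 10.1 times higher and a lowest mutant library at 7.39 times the highest WT library. It did not pass without any other single library, at an adjusted p of 0.205 to 0.437 (limma). With sex as a covariate it was 3.58 and did not pass either (limma, adjusted p = 0.138). The covariate fit set the HDAC1cKO libraries against WT replicate 2 alone, the lowest WT library for Gzmb. WT replicate 1 was also the highest of the 3 WT libraries for Srgn, at 496 FPKM against 292 and 303, whereas for Prf1 it was level with replicate 3, at 0.352 and 0.349 FPKM.

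Across the 4 groups, mean Gzmb FPKM ran from 21.8 in WT cells after 3 days over 34.6 ± 25.5 in restimulated WT cells and 203 ± 30.7 in HDAC1cKO cells to 646 in HDAC1cKO-HDAC2HET cells. The 2 WT groups overlapped, and the 2 mutant groups did not, since the highest HDAC1cKO library was at 234 FPKM and the lowest HDAC1cKO-HDAC2HET library at 485 FPKM. Genotype, restimulation and experiment changed together between the mutant groups and cannot be told apart.

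**Figure D1:**
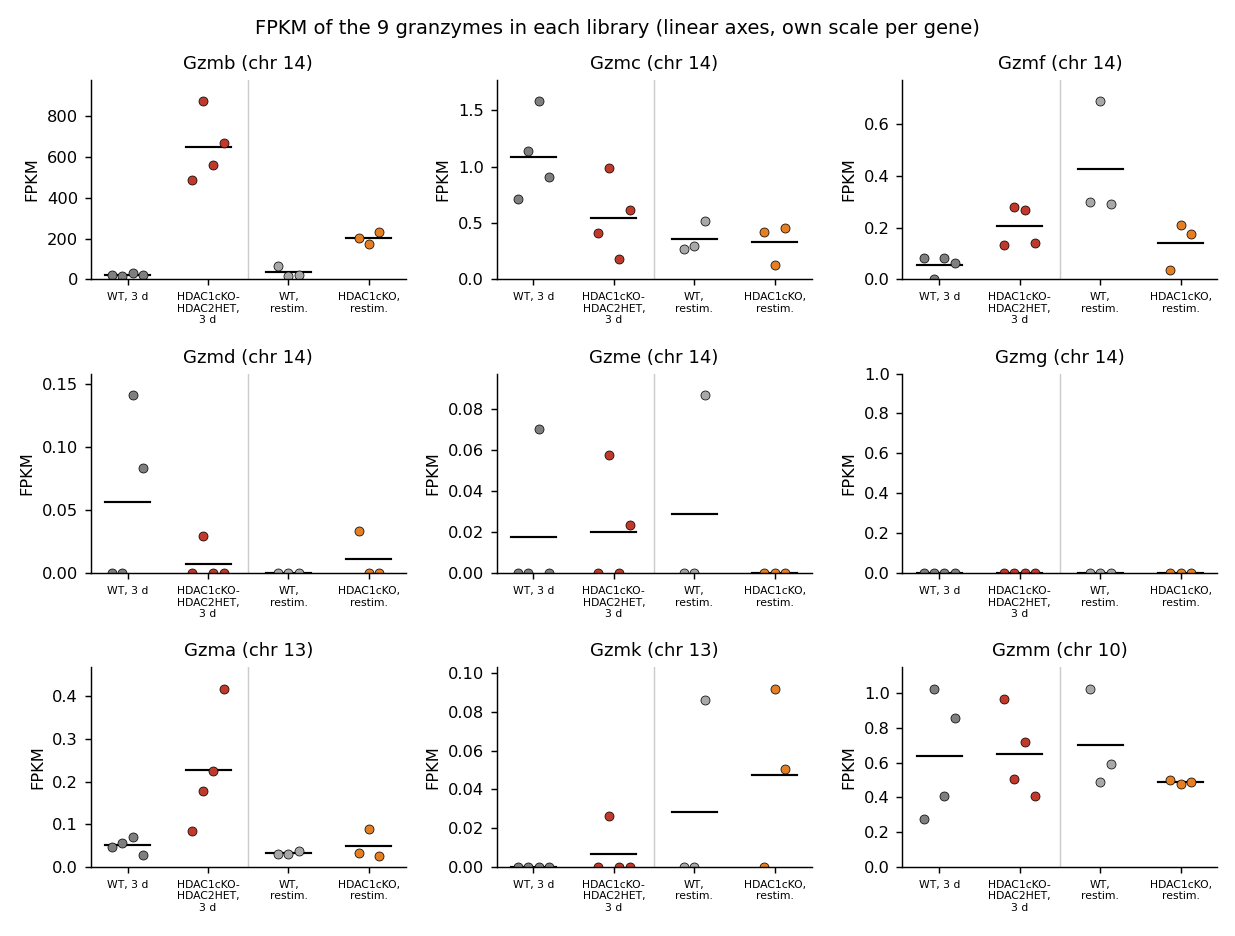
FPKM of the 9 granzymes in each of the 14 libraries, with 1 panel per gene, a linear axis of its own scale in each panel, points for libraries and bars for group means. Gzmb reaches 872 FPKM, Gzmc and Gzmm do not exceed 1.58 and 1.03 FPKM, and Gzmg is listed at 0 throughout.

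Of the other 5 genes of the cluster, Gzmc and Gzmf reached the mean of 0.1 FPKM needed for the test, far below Gzmb in all groups. Gzmc encodes a granzyme that mouse cytotoxic T cells make late after activation. Gzmc was at 0.713, 1.14, 1.58 and 0.908 FPKM in WT and at 0.411, 0.991, 0.178 and 0.616 FPKM in HDAC1cKO-HDAC2HET libraries. The values of WT replicates 2 and 4 came from longer loci, chr14:56231401-56241604 and chr14:56231401-56241631, which match only a RefSeq span longer than the GENCODE gene. All HDAC1cKO-HDAC2HET values came from chr14:56231401-56234656. The groups overlapped, with 3 of 4 mutant libraries below every WT library, and the mean was 1.08 ± 0.373 against 0.549 ± 0.345 FPKM. The log2 fold change of -0.99 ± 0.428 (SE) did not pass the test (limma, adjusted p = 0.0916; exact permutation p = 0.0857). It did pass without HDAC1cKO-HDAC2HET replicate 2, at -1.29 (limma, adjusted p = 0.0307). These values rested on 3 to 42 fragments per library. After restimulation Gzmc was at 0.273, 0.294 and 0.516 FPKM in WT and at 0.418, 0.127 and 0.452 FPKM in HDAC1cKO libraries, and the groups overlapped widely (log2 fold change -0.16 ± 0.443, limma adjusted p = 0.899).

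Gzmf was listed at 0.0821, 0, 0.0820 and 0.0651 FPKM in WT and at 0.133, 0.279, 0.267 and 0.139 FPKM in HDAC1cKO-HDAC2HET libraries. The groups did not overlap, although the mutant values stood on 4 to 8 fragments each and the WT values on at most 3. The log2 fold change was 0.96 ± 0.284 (limma, adjusted p = 0.0234; exact permutation p = 0.0286), and its fold was just under 2. Summed over libraries, 21 mutant and 7 WT fragments gave a ratio of 3.22 per unit of depth, with an exact 95% interval of 1.32 to 8.98 that covers counting error only. Leaving out HDAC1cKO-HDAC2HET replicate 2 or 3 moved the adjusted p to 0.0629 and 0.0585. Gzmf reached the mean of 0.1 FPKM for the test only through the mutant libraries, where it was higher, so the limma p adds no support. The log2 fold change also moved with the constant added to FPKM, to 0.19 with 1 (limma, adjusted p = 0.0241) and 2.02 with 0.01 (limma, adjusted p = 0.0639). After restimulation the order was the other way. The WT libraries were at 0.298, 0.688 and 0.291 FPKM and the HDAC1cKO libraries at 0.0374, 0.209 and 0.174 FPKM, on 1 to 19 fragments. Here all mutant libraries lay below all WT libraries, with a log2 fold change of -1.13 ± 0.465 that did not pass the test (limma, adjusted p = 0.349; exact permutation p = 0.1). The 13 mutant against 33 WT fragments gave a ratio of 0.328, with an exact 95% interval of 0.158 to 0.640.

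The remaining members of the cluster were at or near 0. Gzmd was listed at 0.142 and 0.0835 FPKM in WT replicates 3 and 4, at 0.0294 FPKM in HDAC1cKO-HDAC2HET replicate 2, at 0.0337 FPKM in HDAC1cKO replicate 1 and at 0 in the other libraries, with at most 4 fragments in any of them. Gzme was listed above 0 in 4 of the 14 libraries, between 0.0234 and 0.0871 FPKM. Gzmg was listed at 0 in all 14 libraries. For a library of this depth, 0 fragments allow a level of up to 0.0539 to 0.127 CPM, by a limit of 3 fragments. Neither Gzmd, Gzme nor Gzmg reached the mean of 0.1 FPKM needed for the test, and no difference was detectable at this depth.

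On chromosome 13, Gzma was at 0.0479, 0.0566, 0.0710 and 0.0281 FPKM in WT and at 0.0846, 0.178, 0.226 and 0.418 FPKM in HDAC1cKO-HDAC2HET libraries. All mutant libraries lay above all WT libraries, on 3, 6, 4 and 18 fragments against 1 or 2 fragments per WT library. The log2 fold change was 1.02 ± 0.315 (limma, adjusted p = 0.0268; exact permutation p = 0.0286), and 31 mutant against 7 WT fragments gave a ratio of 4.76 per unit of depth with an exact 95% interval of 2.06 to 12.8. The call depended on single libraries. The adjusted p was 0.0575, 0.0517 and 0.0673 without WT replicate 1, 2 or 4 and 0.0592 without HDAC1cKO-HDAC2HET replicate 3, and without HDAC1cKO-HDAC2HET replicate 4 the gene fell below the level needed for the test, which it reached only through the mutant libraries. The log2 fold change was 0.22 with 1 added to FPKM (limma, adjusted p = 0.0495) and 1.81 with 0.01 added (limma, adjusted p = 0.0204). In the second experiment Gzma was at 0.0249 to 0.0902 FPKM in all 6 libraries, on 1 to 3 fragments, and the groups overlapped (exact permutation p = 0.8). Gzmk, a tryptase that marks a subset of memory T cells, was listed above 0 in 4 libraries, at 0.0266 FPKM in HDAC1cKO-HDAC2HET replicate 2, 0.0859 FPKM in restimulated WT replicate 3 and 0.0920 and 0.0508 FPKM in HDAC1cKO replicates 2 and 3. Each of these stood on about 1 fragment or less.

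Gzmm, which cuts after methionine and leucine and is best known from NK cells, showed no difference between mutant and WT that passed a test. It was at 0.275, 1.02, 0.408 and 0.858 FPKM in WT and at 0.964, 0.508, 0.720 and 0.406 FPKM in HDAC1cKO-HDAC2HET libraries, with full overlap (log2 fold change 0.10 ± 0.403, limma adjusted p = 0.863). After restimulation the WT libraries were at 1.03, 0.492 and 0.595 FPKM and the HDAC1cKO libraries at 0.501, 0.478 and 0.489 FPKM (log2 fold change -0.39 ± 0.297, limma adjusted p = 0.591). These FPKM values are not comparable from library to library, because the assembled transcript behind a fragment differed from 340 to 1152 bases. On the CPM scale, summed over all assembled loci in the span of the gene, the spread within groups was smaller relative to the mean in 3 of 4 groups, at 0.532 ± 0.192 CPM in WT and 0.730 ± 0.190 CPM in HDAC1cKO-HDAC2HET cells, and at 0.562 ± 0.0611 and 0.571 ± 0.122 CPM in restimulated WT and HDAC1cKO cells. For the matched locus alone, with 14 to 34 fragments per library, the log2 fold changes of CPM were 0.38 (limma, adjusted p = 0.327) and -0.13 (limma, adjusted p = 0.812).

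Counted over the family, 5 of 9 members reached the mean of 0.1 FPKM needed for the test in the first experiment, and 3 of them, Gzmb, Gzma and Gzmf, were higher in HDAC1cKO-HDAC2HET cells at an adjusted p of at most 0.05 (limma). Among all 15333 genes tested, 24% were higher and 27.6% lower at this threshold. With a fold change of at least 2 as well, Gzmb and Gzma were called, against 5.58% of all genes called higher and 5.61% called lower. Gzma and Gzmf reached the level for the test only through the mutant libraries, where they were higher, so their part of this count adds no support. The groups of 3 members did not overlap, all higher in the mutant, beside 23.3% of all genes in that direction and 27% in the other. In the second experiment 4 members were tested and 0 were called, at 0.0281% of 14216 genes called higher and 0.0844% called lower (limma). Without the condition on the fold, 0 members passed beside 0.0492% of all genes higher and 0.0844% lower. At an unadjusted p under 0.05 (limma), 1 of the 4 passed, Gzmb, which was higher, beside 6.51% of all genes higher and 7.7% lower at this threshold. Gzmb lay above and Gzmf below the WT libraries without overlap, in which 9.91% and 12.3% of all genes did the same. The median log2 fold change of the members tested was 0.96 and -0.28 in the 2 experiments, and that of all genes was -0.05 and -0.03. The median of 0.96 is the value of Gzmf. Like Gzma, Gzmf was tested only through the mutant libraries, where both were higher, so this median adds no support.

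**Figure D2:**
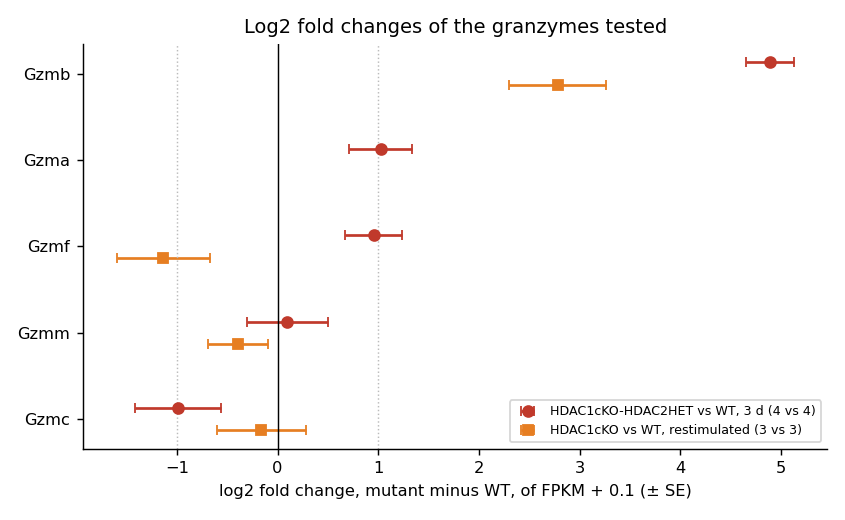
Log2 fold change of FPKM + 0.1, mutant minus WT, with its standard error for each granzyme tested, in HDAC1cKO-HDAC2HET cells (circles, 4 against 4 libraries) and restimulated HDAC1cKO cells (squares, 3 against 3). Dotted lines mark a fold of 2. Gzmb lies at 4.89 and 2.78, and Gzmf lies at 0.96 in the first and at -1.13 in the second experiment.

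The fold change of Gzmb was larger in HDAC1cKO-HDAC2HET than in restimulated HDAC1cKO cells, by a difference of the log2 fold changes of 2.11 ± 0.538 (limma, adjusted p = 0.0212), with 15.6% of 12648 genes past this threshold in either direction. With sex as a covariate the difference was 1.31 and no longer passed (limma, adjusted p = 0.195). The covariate fit set the HDAC1cKO libraries against restimulated WT replicate 2 alone. Without the covariate, Gzmc at -0.83 and Gzmm at 0.49 did not pass. For Gzmf the difference was 2.09 ± 0.525. It is given as a description, because the gene entered the first experiment only through the mutant libraries, where it was higher, and stood on at most 19 fragments in a library. On the CPM scale it could not be tested because the gene missed the filter.

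The family's transcripts were almost wholly Gzmb. Summed FPKM over the 9 members was 23.7 ± 6.22 in WT and 647 ± 168 in HDAC1cKO-HDAC2HET cells, and 36.2 ± 25.6 and 204 ± 30.8 in restimulated WT and HDAC1cKO cells. Without Gzmb the sums were 1.91 ± 0.554, 1.66 ± 0.288, 1.58 ± 0.0676 and 1.07 ± 0.106. Gzmb made up 91.6% ± 3.06 of the sum in WT and 99.7% ± 0.0432 in HDAC1cKO-HDAC2HET cells, and 94.3% ± 2.95 and 99.5% ± 0.0406 in the restimulated groups. Next in WT cells after 3 days came Gzmc at 4.64% and Gzmm at 3.01%, whose library values overlapped. In restimulated WT cells Gzmm stood at 2.22%, Gzmf at 1.80% and Gzmc at 1.37%, and these too overlapped.

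**Figure D3:**
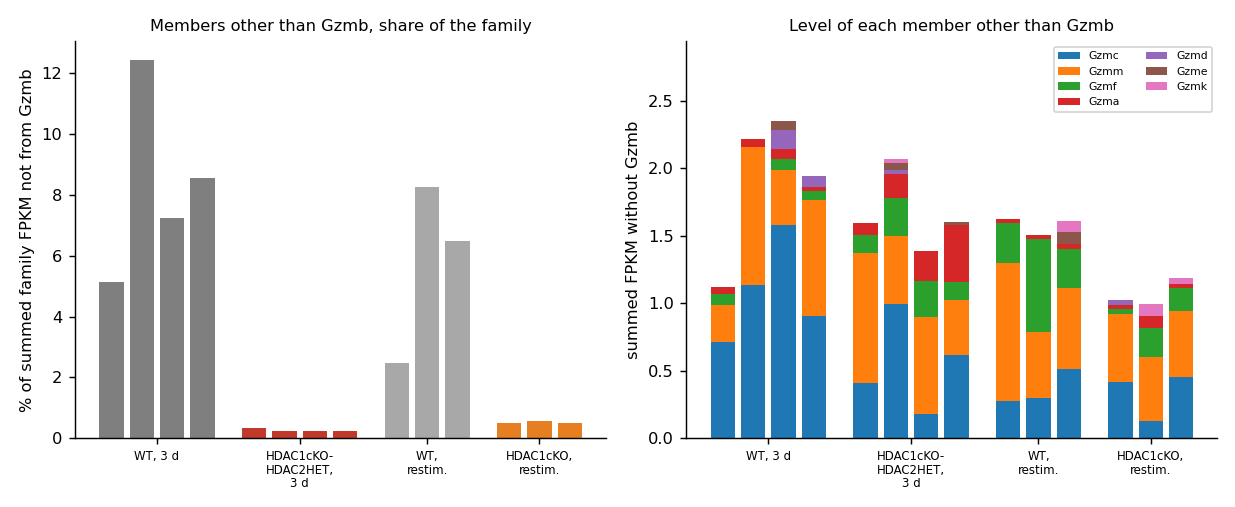
Left, the percentage of the summed granzyme FPKM that did not come from Gzmb, 1 bar per library; right, the FPKM of each other member stacked per library. The left bars are below 1% in the 7 mutant libraries, and the stacked levels at the right stay between 0.995 and 2.35 FPKM in all 14 libraries.

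The partners of granzymes in the granule moved unevenly. Of 15 genes for packing and release, 14 were tested in HDAC1cKO-HDAC2HET cells, of which 5 were higher and 3 lower (limma, adjusted p of at most 0.05), with a median log2 fold change of 0.04. Among all genes, 24% were higher and 27.6% lower at this threshold. Prf1, which encodes perforin, was at 0.240, 0.301, 0.287 and 0.367 FPKM in WT and at 16.9, 21.4, 20.4 and 20.4 FPKM in mutant libraries, which differed by 5.64 ± 0.116 on the log2 scale (limma, adjusted p = 1.70e-07). In WT cells Gzmb was thus at 21.8 FPKM beside a Prf1 level of 0.299 FPKM. Nkg7, a granule membrane protein needed for release, rose from 38.3 ± 7.78 to 154 ± 14.5 FPKM (log2 fold change 2.02, limma adjusted p = 2.07e-05). Srgn, the proteoglycan serglycin that holds granzyme B in the granule, fell from 308 ± 15.5 to 210 ± 19.1 FPKM (log2 fold change -0.55, limma adjusted p = 3.24e-04). Ctsc, the protease that removes the propeptide of granzymes, was at 36.8 ± 0.707 in WT and 35.0 ± 0.891 FPKM in mutant cells and did not pass (limma, adjusted p = 0.0612). M6pr, a mannose 6-phosphate receptor that carries granzymes to the granule, fell from 108 to 84.6 FPKM, while Gnptab, which makes the mannose 6-phosphate tag, rose from 25.7 to 35.2 FPKM.

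After restimulation 0 of 14 partner genes passed (limma, adjusted p of at most 0.05), 5 had an unadjusted p under 0.05, 3 of them higher, where 14.2% of all genes had one in either direction, with a median log2 fold change of 0.04. Prf1 was at 0.352, 0.203 and 0.349 FPKM in WT and at 2.17, 1.48 and 2.68 FPKM in HDAC1cKO libraries. All 3 mutant libraries lay above all WT libraries, and the log2 fold change of 2.45 ± 0.304 had an adjusted p of 0.0738 (limma). Nkg7 was at 19.6, 28.1 and 151 FPKM in WT and at 273, 179 and 202 FPKM in HDAC1cKO libraries (limma, adjusted p = 0.286). WT replicate 3 was the high library for Nkg7, not replicate 1, which was the high one for Gzmb.

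Serpins that inhibit granzymes, and so protect the cell that makes them, were also higher in HDAC1cKO-HDAC2HET cells. Of 5 serpin genes, 3 were tested and all 3 passed, beside 24% of all genes higher (limma, adjusted p of at most 0.05). The median log2 fold change of the 3 serpin genes was 1.32. Serpinb9, the inhibitor of granzyme B, rose from 8.72 ± 1.26 to 21.8 ± 1.65 FPKM (log2 fold change 1.32, limma adjusted p = 3.39e-05). Serpinb6b rose from 7.96 ± 2.77 to 32.8 ± 2.42 FPKM (log2 fold change 2.09, limma adjusted p = 1.74e-04). In restimulated cells Serpinb9 was at 26.7 ± 8.28 in WT and 42.5 ± 8.40 FPKM in HDAC1cKO cells, and Serpinb6b at 45.9 ± 5.32 and 69.4 ± 15.1 FPKM, and neither passed (limma, adjusted p = 0.346 and 0.281), although both had an unadjusted p under 0.05, the 2 of 3 tested serpin genes that did, both higher, beside 6.51% of all genes higher.

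**Figure D4:**
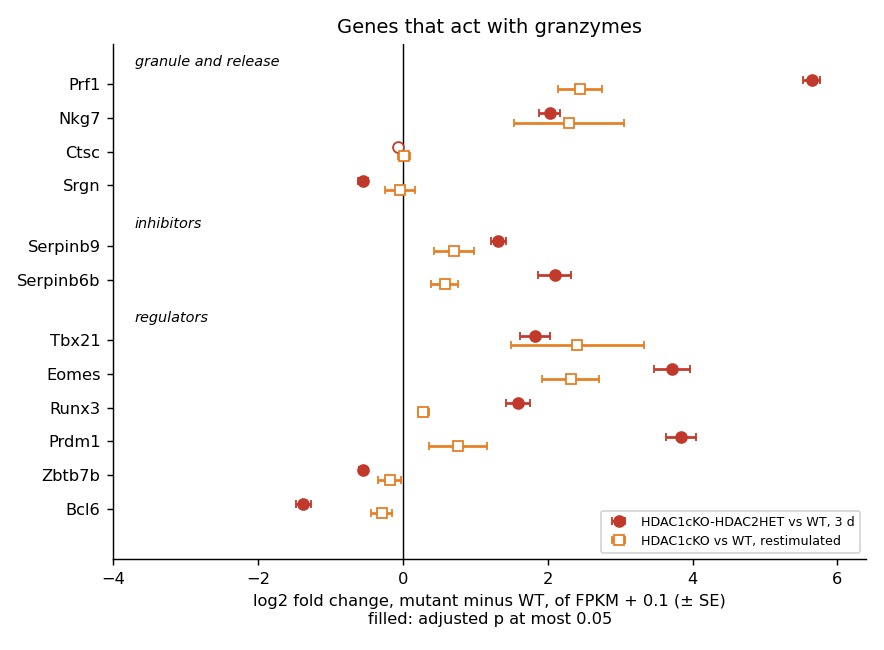
Log2 fold change of FPKM + 0.1, mutant minus WT, with its standard error for 12 genes that act with granzymes, in HDAC1cKO-HDAC2HET cells (circles) and restimulated HDAC1cKO cells (squares); filled symbols have an adjusted p of at most 0.05. Prf1 lies farthest to the right at 5.64, Bcl6 is lowest at -1.37, Zbtb7b, Srgn and Ctsc are also below 0 in the first experiment, and no gene of the second experiment is filled.

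Of 18 regulators of granzyme genes, 17 were tested in the first experiment, with 6 higher and 7 lower (limma, adjusted p of at most 0.05) and a median log2 fold change of -0.07. Among all genes, 24% were higher and 27.6% lower at this threshold. The list moved in both directions, and genes known to promote effector functions were among the higher and among the lower ones. Tbx21, which encodes T-bet, rose from 26.7 ± 8.60 to 91.3 ± 1.84 FPKM (log2 fold change 1.83, limma adjusted p = 1.82e-04). Eomes, the related T-box factor, rose from 2.84 ± 1.19 to 36.8 ± 5.95 FPKM (log2 fold change 3.71, limma adjusted p = 1.48e-05). Runx3, the RUNX factor of CD8+ T cells, rose from 15.5 ± 1.39 to 48.0 ± 13.1 FPKM (log2 fold change 1.59, limma adjusted p = 1.37e-04). Prdm1, which encodes Blimp-1, rose from 0.108 ± 0.0253 to 2.95 ± 0.788 FPKM (log2 fold change 3.84, limma adjusted p = 5.63e-06). Zbtb7b, which encodes the CD4-lineage factor ThPOK, fell from 33.9 ± 1.18 to 23.0 ± 1.15 FPKM (log2 fold change -0.56, limma adjusted p = 2.98e-05). Bcl6, the follicular helper factor, fell from 1.96 ± 0.0947 to 0.700 ± 0.0882 FPKM (log2 fold change -1.37, limma adjusted p = 2.43e-05). The other 7 that passed are named here with their values known. Zeb2, a factor of terminal effector cells, and Il2rb, an IL-2 receptor chain, rose with log2 fold changes of 1.45 and 1.03 (limma, adjusted p = 3.12e-05 and 1.13e-05). Id2, an inhibitor of E proteins that promotes effector T cells, fell from a mean of 74.3 FPKM, with no WT library below 61.2, to 18.6 ± 6.92 FPKM, the steepest fall of the list (log2 fold change -2.07, limma adjusted p = 3.75e-04). Irf4, a factor induced by T cell receptor signals, fell from 176 ± 2.55 to 143 ± 8.21 FPKM (log2 fold change -0.31, limma adjusted p = 5.23e-04). Runx1, Bach2 and Il2ra fell with log2 fold changes of -0.88, -0.69 and -0.57 (limma, adjusted p = 1.88e-04, 4.61e-05 and 1.69e-04).

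After restimulation 0 of 18 regulators passed (limma, adjusted p of at most 0.05), 7 had an unadjusted p under 0.05, 4 of them higher, beside 14.2% of all genes in either direction, with a median log2 fold change of -0.16. Tbx21 was at 15.0, 3.04 and 46.5 FPKM in WT and at 70.9, 66.0 and 70.7 FPKM in HDAC1cKO libraries. The mutant libraries were alike and the WT libraries differed widely among themselves (log2 fold change 2.41, limma adjusted p = 0.330). Eomes was at 8.83, 3.79 and 11.4 FPKM in WT and at 34.0, 41.6 and 34.5 FPKM in HDAC1cKO libraries (log2 fold change 2.31, limma adjusted p = 0.145). Within the restimulated WT group, Gzmb at 63.9, 16.7 and 23.3 FPKM did not follow the order of Tbx21, since replicate 3 was highest for Tbx21. Runx3, Prdm1, Zbtb7b and Bcl6 had log2 fold changes of 0.28, 0.76, -0.18 and -0.29 (limma, adjusted p = 0.244, 0.434, 0.618 and 0.401).

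Genes within 300 kb of the granzymes moved in both directions. Within 300 kb of the chromosome 14 cluster lie 33 other genes, 4 of which were tested in the first experiment, and 0 were higher and 3 lower (limma, adjusted p of at most 0.05), with a median log2 fold change of -0.87. Among all genes tested, 24% were higher and 27.6% lower at this threshold. Khnyn, which encodes an RNA-binding protein, fell from 17.8 ± 0.797 to 7.77 ± 0.688 FPKM (log2 fold change -1.19, limma adjusted p = 7.05e-06), and Cbln3 from 0.214 to 0.0444 FPKM (log2 fold change -1.05, limma adjusted p = 0.0136). Cbln3 reached the level for the test only through the WT libraries, where it was higher, so its limma p and its part of the 3 lower genes add no support. Khnyn and Cbln3 lie 218851 and 233234 bases outside the cluster at its Gzme end, with Gzmb at the other end. Near Gzma and Gzmk, 3 of 24 genes were tested, 2 higher and 1 lower (limma, adjusted p of at most 0.05), with a median of 0.14, and none of them with a fold change of 2 or more. Near Gzmm, 18 of 43 genes were tested, 11 higher, a larger share than among all genes, and 2 lower (limma, adjusted p of at most 0.05), with a median of 0.33. Of these, Madcam1, an adhesion molecule of vessels, rose from 0.211 ± 0.0295 to 7.68 ± 0.653 FPKM (log2 fold change 4.64, limma adjusted p = 2.05e-07). The other two called were Hcn2 with 0.393 and 1.18 FPKM and Palm with 0.937 and 2.43 FPKM, while Gzmm itself did not pass. In restimulated cells 0 of 30 neighbours of the 3 clusters passed (limma, adjusted p of at most 0.05), and 8 had an unadjusted p under 0.05, beside 14.2% of all genes. The mast cell proteases, Ctsg and Gzmn, the other serine proteases of the chromosome 14 cluster, were too low for the test in the first experiment, and Gzmn was listed at 0 in all libraries.

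Markers of other cell types were read beside these results. NK cells express several granzymes, and of 7 NK markers 0 reached 1 FPKM in any library, with summed levels between 0.0450 and 0.354 FPKM over all groups and Tyrobp and Klra8 at 0 in the first experiment. Of the 2 CD8 genes, Cd8a rose from 0.0581 ± 0.0224 to 0.439 ± 0.108 FPKM and Cd8b1 from 4.71 ± 1.34 to 12.8 ± 1.59 FPKM in HDAC1cKO-HDAC2HET cells (limma, adjusted p = 1.87e-04 and 5.80e-04). Cd8a reached the level for the test only through the mutant libraries, where it was higher, so its limma p adds no support. The summed level of the 2 CD8 genes was 3.28 to 5.96 FPKM in WT and 11.7 to 15.2 FPKM in mutant libraries, and 3.80 to 4.86 and 6.52 to 7.30 FPKM in the restimulated groups, so it moved in the same direction as Gzmb. The part of CD8+ T cells in the Gzmb difference was not tested. The 5 B cell markers also summed to more in HDAC1cKO-HDAC2HET libraries, at 2.79 to 4.40 against 0.502 to 0.945 FPKM, mostly through Cd79b. The 8 mast cell markers summed to 2.22 to 3.46 FPKM in WT and 2.23 to 4.15 FPKM in HDAC1cKO-HDAC2HET libraries, and to 1.73 to 2.65 and 2.39 to 5.69 FPKM in restimulated WT and HDAC1cKO libraries, with Tpsb2 and Mcpt4 at 0 in the first experiment. Of the 3 tested in the first experiment 1 passed, higher in the mutant, beside 24% of all genes higher (limma, adjusted p of at most 0.05). It was Ms4a2, a chain of the IgE receptor, at 0.00724 to 0.0106 FPKM in WT and at 0.168, 0.141, 0.259 and 0.317 FPKM in HDAC1cKO-HDAC2HET libraries (log2 fold change 1.53, limma adjusted p = 6.10e-04). It thus moved with Gzmb without overlap of the groups, although it too reached the level for the test only through the mutant libraries, and in restimulated cells it was at 0 to 0.0655 FPKM in WT and 0.0300 to 0.289 FPKM in HDAC1cKO libraries. Its part in the Gzmb difference was not tested. The 8 myeloid markers summed to at most 0.585 FPKM in any library.

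Over the 14 libraries and 9805 genes with a mean of at least 1 FPKM in each experiment, the 5 genes whose log2 levels were most alike to those of Gzmb were Slc12a4, Lrrc59, Dnajc21, Tnp2 and Carhsp1, with Pearson's r of 0.987, 0.984, 0.982, 0.973 and 0.973. The libraries fall into 4 groups with very unlike Gzmb levels, and the values describe mainly the order of these groups. Within groups, after removing the group means, r was 0.716, 0.700, 0.815, 0.536 and 0.796. The genes were picked by r over the same 14 libraries, so the within-group values add no support. Slc12a4, a potassium-chloride cotransporter, was at 18.1, 32.9, 18.9 and 26.4 FPKM in WT, HDAC1cKO-HDAC2HET, restimulated WT and HDAC1cKO cells, and Lrrc59 at 58.2, 130, 68.0 and 97.9 FPKM. In all 5 genes HDAC1cKO-HDAC2HET cells had the highest mean and HDAC1cKO cells the next, over a much narrower range of levels than in Gzmb. The order of the WT groups was not shared by all, since Dnajc21 was at 29.6 FPKM in WT and 28.6 FPKM in restimulated WT cells.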

How the data were processed

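RNA-Seq of 14 libraries was analysed. The deposited values are FPKM with confidence bounds, which the authors made with TopHat and Cufflinks on mm10, library by library, according to the study's methods. The submitters' processing notes instead list STAR 2.5.2b and Subread 1.5.1, which do not write such columns. FPKM is already scaled to depth and length, and each library was assembled on its own, so transcript lengths can differ between libraries.

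Named rows were used where present, and otherwise unnamed loci sharing at least 0.8 of the joint span with a GENCODE or RefSeq gene. For each experiment, log2(FPKM + 0.1) values entered a limma fit of their own (limma 3.58.1, R 4.3.3) with an intensity trend. Adjustment followed Benjamini-Hochberg and covered every gene whose mean reached 0.1 FPKM. A gene was called at an adjusted p of at most 0.05 and a fold change of at least 2. Fold changes are on the log2(FPKM + 0.1) scale, which understates the change of low genes. The difference between experiments was a contrast over all 14 libraries. For members, a 2-sided exact permutation test ran over 70 or 20 arrangements.

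Fragments were estimated as the square of FPKM over its standard error, read from the upper bound. Of low genes, 81.1% to 85.9% per library gave a whole number within 0.05. Intervals and limits at 0 cover counting error only.

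The members and all lists were chosen with earlier results of these data known. The text names every granzyme, 12 partner genes, called neighbours of a cluster within 300 kb and the 5 genes most alike to Gzmb. Markers of other cell types and some gene values beside a result were added to these. Alternatives changed the pseudocount, filter, scaling, trend, weights, block, sex covariate, joint span, naming and each library in turn. The main matching, to RefSeq as well as GENCODE spans, was chosen after seeing that the Gzmc locus of some libraries is longer than the GENCODE gene. Matching to GENCODE spans alone and CPM from the estimated fragments (per 1000000) were also chosen after seeing the data. The scripts were tested on simulated data. Figures were drawn with matplotlib 3.10.9.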

Additional observations from a re-analysis of the deposited data

Results flagged for a closer look

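In 22 checks of 4 libraries for a single library far from the others, 3 stood out. The 22 include groups listed at 0 in all 4 libraries, which could not be flagged. They were Gzmd at 0.0294 FPKM in HDAC1cKO-HDAC2HET replicate 2, Gzme at 0.0706 FPKM in WT replicate 3 and Gzmk at 0.0266 FPKM in HDAC1cKO-HDAC2HET replicate 2. In each of them the other 3 libraries were listed at 0, and the value stood on 2 fragments or fewer.

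The log2 fold change of Gzmb was larger in HDAC1cKO-HDAC2HET than in restimulated HDAC1cKO cells by 2.11 (limma, adjusted p = 0.0212), a call that was lost with sex as a covariate, at 1.31 (limma, adjusted p = 0.195). The covariate fit set the HDAC1cKO libraries against restimulated WT replicate 2 alone. For Gzmf the difference without the covariate was 2.09. That gene reached the level for the test in the first experiment only through the mutant libraries, where it was higher.

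Just beyond the 3′ end of Gzmb, unnamed loci were listed in all 4 HDAC1cKO-HDAC2HET libraries, with 66, 115, 11 and 95 fragments in replicates 1 to 4. They lie within chr14:56256506-56258774 on mm10, begin 64 to 308 bases from the annotated end of Gzmb and overlap no GENCODE gene. The highest FPKM per library was 0.792, 1.03, 2.42 and 0.932. As a share of the Gzmb fragments of the same library they were 0.243%, 0.245%, 0.0692% and 0.209%. No such locus was listed in the other 10 libraries. At the mean mutant share, the WT libraries of the first experiment would hold 1.69 to 2.67 fragments and the HDAC1cKO libraries 16.8 to 27.5 fragments.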

How the results depend on the processing

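Of 283 alternatives over 13 gene-by-comparison results, 257 kept direction and side of the threshold. Gzmb in HDAC1cKO-HDAC2HET cells stayed called in every alternative that could give it, with log2 fold changes of 4.73 to 5.06 and adjusted p of 5.55e-07 to 6.85e-04 (limma). The 2 granzymes called there became 1 with a pseudocount of 1, a filter at a mean of 1 FPKM, a replicate block, 1 fit over both experiments or CPM, and 0 with named rows alone, where Gzmb has no value in 5 of 8 libraries. They were 1 to 3 when each library was left out. In restimulated cells the count of 0 became 1, Gzmb, with array weights, with 1 fit over both experiments and without WT replicate 1, a range of 0 to 1 over left-out libraries, and Gzmb had log2 fold changes of 2.38 to 3.58 and adjusted p of 0.00212 to 0.437 (limma). Of the differences between experiments, 2 became 1 with a filter at 1 FPKM, the replicate block, the sex covariate or CPM, and 0 with named rows alone. It stayed at 2 without each library. Gzmm in the first experiment turned to -0.0571 with array weights and ranged from -0.18 to 0.34 over left-out libraries, being -0.18, -0.04 and -0.09 without WT replicate 1, WT replicate 3 and HDAC1cKO-HDAC2HET replicate 1. Gzmc in restimulated cells turned to 0.0279 with the sex covariate, 0.07 without WT replicate 3 and 0.25 without HDAC1cKO replicate 2, a range of -0.39 to 0.25 over left-out libraries. The 5 called neighbours became 2 with a pseudocount of 1. As a share of the chromosome 14 members, Gzmb was 99.8841% and 99.7661% in the 2 mutants. Without Gzmb in the sum, Gzmm was 33.1%, 40.5%, 44.2% and 46.0% and Gzmc 57.2%, 31.2%, 22.8% and 30.5% in WT, HDAC1cKO-HDAC2HET, restimulated WT and HDAC1cKO cells. Apart from the changes that follow from fewer genes tested, the cause was not tested. With the replicate number as a block, 0 genes were called higher and 5 lower in restimulated cells, against 4 and 12, and the Gzmb difference had an adjusted p of 0.0503 (limma). The 7 same-numbered pairs correlated at -0.0117 to 0.0456. With so few libraries per group, this cannot show whether the numbers pair the samples. Genes called higher and lower over all genes were 422 and 334 with a pseudocount of 1 and 225 and 191 with named rows alone in the first experiment, against 855 and 860. In restimulated cells they were 30 and 47 with the sex covariate, 14 and 14 with array weights, 15 and 13 with CPM, 141 and 141 with 1 fit over both experiments, 0 and 9 with no filter, 2 and 8 with a pseudocount of 1, 0 and 7 with no trend, 1 and 6 with named rows alone, 1 and 9 at a joint span of 0.5, and up to 24 and 31 without WT replicate 3. Genes whose fold changes differed between the experiments were 735 and 493 with the sex covariate, 597 and 545 with separate spreads, 405 and 318 with CPM and 38 and 16 with named rows alone, against 1026 and 945 above and below 0. With GENCODE spans alone Gzmc was not tested in the first experiment, and the sex covariate could not be fitted there because all 8 libraries were alike. Depth limits every member but Gzmb, since none of the others exceeded 42 fragments in a library.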
